A study of Mus musculus with 12 samples.

Results

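The genes described here encode nuclear-encoded subunits of oxidative phosphorylation, the chain of 5 protein complexes in the inner mitochondrial membrane that makes most of the ATP of a respiring cell. They were chosen by name. Of 40 listed genes 39 were measured by a probe set annotated to that gene alone, among 18193 genes in all, and 84 probe sets carried them. Ndufs6, an accessory subunit of complex I, was represented here only by a probe set shared with other symbols and was left out. The 39 genes comprise 22 subunits of complex I, 4 of complex II, 5 of complex III, 6 of complex IV and 2 of complex V.

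Complex I takes electrons from NADH and complex II takes them from succinate. Both pass them through coenzyme Q to complex III, which hands them by way of cytochrome c to complex IV, where oxygen is reduced. Complexes I, III and IV pump protons, and the returning protons drive complex V, the ATP synthase. Haematopoietic stem cells at rest are known to rely largely on glycolysis, and respiration increases as they divide and differentiate. The transcription factors NRF1, GABPA and YY1 and the receptor ERRα (Esrra) with its coactivators are the textbook regulators of the nuclear genes of this chain.

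Expression was measured on 12 Affymetrix mouse arrays, with cells sorted from bone marrow as c-Kit-positive, Sca-1-positive and lineage-negative (KSL), which comprises the stem cells and early progenitors of blood. Donors were wild-type or Fancc mutant mice aged 2 to 4 months. The labels do not describe the Fancc allele, and no other allele is named. Every culture lasted 24 h and contained serum, stem cell factor, Flt3 ligand, IL-6 and IL-11. The treated cultures also received the inflammatory cytokine tumour necrosis factor alpha (TNF) at 10 ng/ml. The 4 groups of 3 arrays were wild type without TNF, wild type with TNF, mutant without TNF and mutant with TNF. The questions are whether TNF moved the respiratory genes in each genotype, whether the genotypes differed, and whether the TNF response depended on genotype.

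Fancc, a subunit of the Fanconi anaemia DNA repair complex, gave no lower signal in the groups labelled mutant. It ran from 8.22 to 8.65 in wild type and from 8.73 to 9.16 on those labelled mutant (log2), a difference of 0.62 (SE 0.10) with a limma adjusted p of 0.137, above the threshold of 0.05 used throughout. It is not known whether the mutation removes the stretch that this probe set reads, so genotype is given as labelled. Of 13 stem and KSL markers measured, 12 exceeded the median gene signal of 7.44 on some array. Kit, Cd34 and Flt3 were well above it on every array, and Slamf1 was below it on every array. No label states that replicates were separate mice, and p-values therefore reflect only the spread between these samples, part of which may be technical. Xist, a gene expressed in female cells, differed strongly between replicates of both untreated groups. Those replicates were therefore not all repeats of the same RNA. Xist was high on every treated array, so donor sex was not balanced over TNF. The number of arrays limits the precision. Because RNA came from whole cultures, fewer cells of a type and less RNA per cell cannot be told apart.

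The promoters of the respiratory genes are shown first, because their known regulators are among the genes compared below. RefSeq promoters (GRCm38.p6, from 250 bases before to 50 bases after the start) were found for 29 of the 39 measured genes, 30 promoters in all; Atp5a1, Cox4i1, Cox6c, Cyc1, Ndufa2, Ndufb9, Ndufs1, Sdhc, Uqcrc2 and Uqcrq had no entry. The letters GCGCANGC of the NRF1 motif, read on both strands, occurred in 9 of the 30 promoters (30%), against 9.95% of 32851 promoters of the same length. The letters CCGGAAG of the GABPA motif occurred in 7 (23.3%), against 8.86%, and the letters GATGGCGG of the YY1 motif in 3 (10%), against 1.7%. At least 1 of the 3 motifs was present in 17 promoters (56.7%), against 18.1% of all. Ndufa5 has 2 overlapping promoters that hold the same NRF1 site, which the NRF1 count and the 17 include for each. The 17 promoters belong to 16 genes. A match is a description of letters and not a binding site. The stretches printed here run from 120 bases before to 5 bases after the start, 5′ to 3′ on the minus strand, which all 4 genes use. Capitals mark motif letters. Ndufa10 (chr1:92473754-92473878) and Cox8a (chr19:7217612-7217736) are shown because they passed the test for TNF below, the first with no match and the second with the GABPA letters in reverse complement at its start. Sdhd (chr9:50603845-50603969) is the complex II gene with the smallest p for TNF and holds NRF1 and GABPA letters. Sdha (chr13:74350236-74350360) holds the NRF1 letters 3 times.
Ndufa10: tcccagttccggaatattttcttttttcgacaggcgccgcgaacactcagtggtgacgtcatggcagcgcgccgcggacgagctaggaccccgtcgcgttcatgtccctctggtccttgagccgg
Cox8a: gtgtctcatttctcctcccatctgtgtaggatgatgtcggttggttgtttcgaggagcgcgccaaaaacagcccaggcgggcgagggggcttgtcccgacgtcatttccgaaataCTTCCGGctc
Sdhd: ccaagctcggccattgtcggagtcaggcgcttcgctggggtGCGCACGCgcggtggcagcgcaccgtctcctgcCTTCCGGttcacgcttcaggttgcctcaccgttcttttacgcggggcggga
Sdha: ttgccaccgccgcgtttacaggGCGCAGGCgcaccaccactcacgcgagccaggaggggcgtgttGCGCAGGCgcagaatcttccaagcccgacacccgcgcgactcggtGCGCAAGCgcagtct

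The subunit genes were among the brighter genes of these cells. Their mean signals lay between 10.87 and 14.26, and the dimmest gene of the 39 was still above 80.8% of all genes. None of them was therefore near the floor of the arrays, where changes are compressed. The spread between replicate arrays was small, with a within-group SD of 0.03 to 0.20. Ndufb6 and Ndufb10, supernumerary subunits of the complex I membrane arm, had the largest spread. Ndufb10 read 12.51 on replicate 1 of untreated wild type against 13.12 and 13.05 on the other replicates. Ndufb6 read 12.66 on that same array against 12.30 and 12.24.

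Few of these genes were enough lower with TNF to pass, but nearly all of them leaned down. Averaged over genotype, 0 of 39 rose and 3 fell (7.69%), Uqcrq of complex III, Ndufa10 of complex I and Cox8a of complex IV. Over all genes 12.1% passed in this comparison, 5.81% upward and 6.32% downward (limma, Benjamini-Hochberg adjusted p under 0.05), so the share of subunit genes called lower was close to the background share. The change was below 0 for 38 of the 39 (97.4%), against 59.3% of all genes. An unadjusted limma p under 0.05 was reached by 11 of the 39, all of them lower with TNF. Over all 18193 genes, 1960 higher and 2764 lower ones reached it. With both directions counted together, the share of subunit genes was close to that of all genes. With lower genes counted alone, it was larger among the subunit genes than over all genes. The median change was -0.077 on the log2 scale, against -0.035 over all genes. No test of the genes as a group was made.

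**Figure D1:**
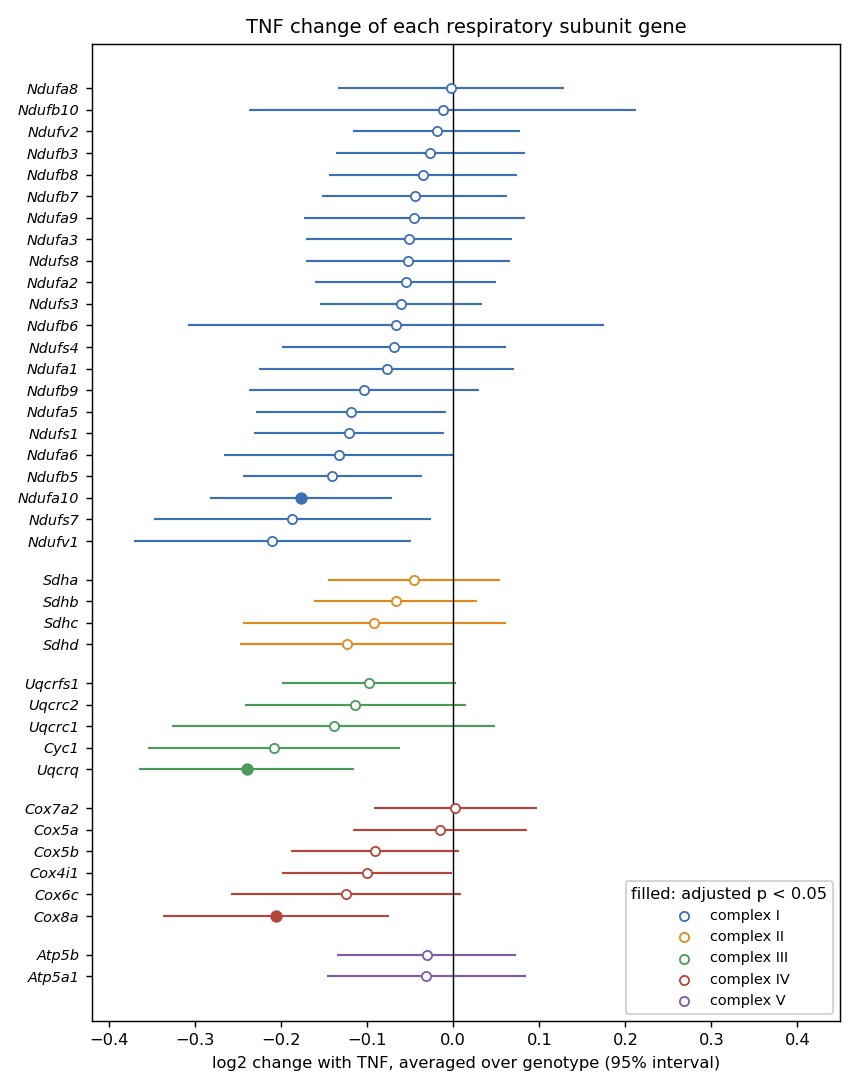
Change with TNF averaged over genotype for each of the 39 subunit genes, as a log2 difference (x axis) with its 95% interval from limma, grouped by complex; filled points passed at an adjusted p under 0.05. Points lie from -0.24 (Uqcrq) to 0.00 (Cox7a2), and only Uqcrq, Ndufa10 and Cox8a are filled.

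Uqcrq, a small subunit of complex III that sits beside cytochrome b, read 12.37, 12.36 and 12.39 in untreated wild type. It read 12.05, 12.02 and 12.19 with TNF. In the groups labelled mutant it read 12.34, 12.54 and 12.46 without TNF and 12.35, 12.17 and 12.23 with TNF. The wild-type groups did not overlap, while replicate 1 of the treated arrays labelled mutant stood within the range of its untreated group. Averaged over genotype Uqcrq fell by 0.24 (SE 0.06, 95% interval -0.36 to -0.12, 1.18-fold; limma adjusted p = 0.0189). Its 3 other probe sets were dim, with means of 4.41 to 6.92 and changes of -0.15, -0.04 and 0.19, none of which passed. When all its probe sets were averaged, the change was -0.06 and did not pass (limma adjusted p = 0.645).

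Ndufa10, a supernumerary subunit in the membrane arm of complex I, read 12.34, 12.46 and 12.43 in untreated wild type and 12.17, 12.23 and 12.28 with TNF. On the arrays labelled mutant it read 12.42, 12.44 and 12.53 untreated and 12.27, 12.28 and 12.32 treated. All 6 treated arrays were below all 6 untreated ones. It fell by 0.18 (SE 0.05, 95% interval -0.28 to -0.07, 1.13-fold; limma adjusted p = 0.0354).

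Cox8a, the widely expressed isoform of a small nuclear-encoded subunit of cytochrome c oxidase, read 12.04, 12.18 and 12.16 in untreated wild type and 11.86, 12 and 11.90 with TNF. Its signals were, in the groups labelled mutant, 12.07, 12.22 and 12.35 without TNF and 12.03, 12 and 11.99 with TNF. Every treated array was below every untreated one, with 12.03 and 12.04 as the nearest pair. Cox8a fell by 0.21 (SE 0.06, 95% interval -0.34 to -0.07, 1.15-fold; limma adjusted p = 0.0469). A second Cox8a probe set also gave -0.21. In a fit over all 45037 probe sets, where more tests are adjusted for, neither passed (limma adjusted p = 0.0768 for the brightest and 0.128 for the second).

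These 3 calls were not equally stable. In the fit over all probe sets Uqcrq passed (limma adjusted p = 0.0358), and Ndufa10 (0.0662) and Cox8a (0.0768) did not. Over 20 other alternative fits, Uqcrq passed in 17 (limma adjusted p from 0.00441 to 0.645), Ndufa10 in 8 (0.00706 to 0.125) and Cox8a in 6 (0.0179 to 0.0958), and all 3 stayed below 0 in each. Without replicate 2 of the untreated or of the treated arrays labelled mutant, 0 of 39 passed. Without any of replicates 2 and 3 of untreated or treated wild type, replicate 3 of untreated mutant, or replicates 1 and 3 of treated mutant, 1 passed; without replicate 1 of treated wild type, 2 did. Moderation with a trend and robust weights raised the count to 9 (23.1%, against 13.2% of all genes), and a filter on dim genes raised it to 5 (12.8%, against 22.6%).

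**Figure D2:**
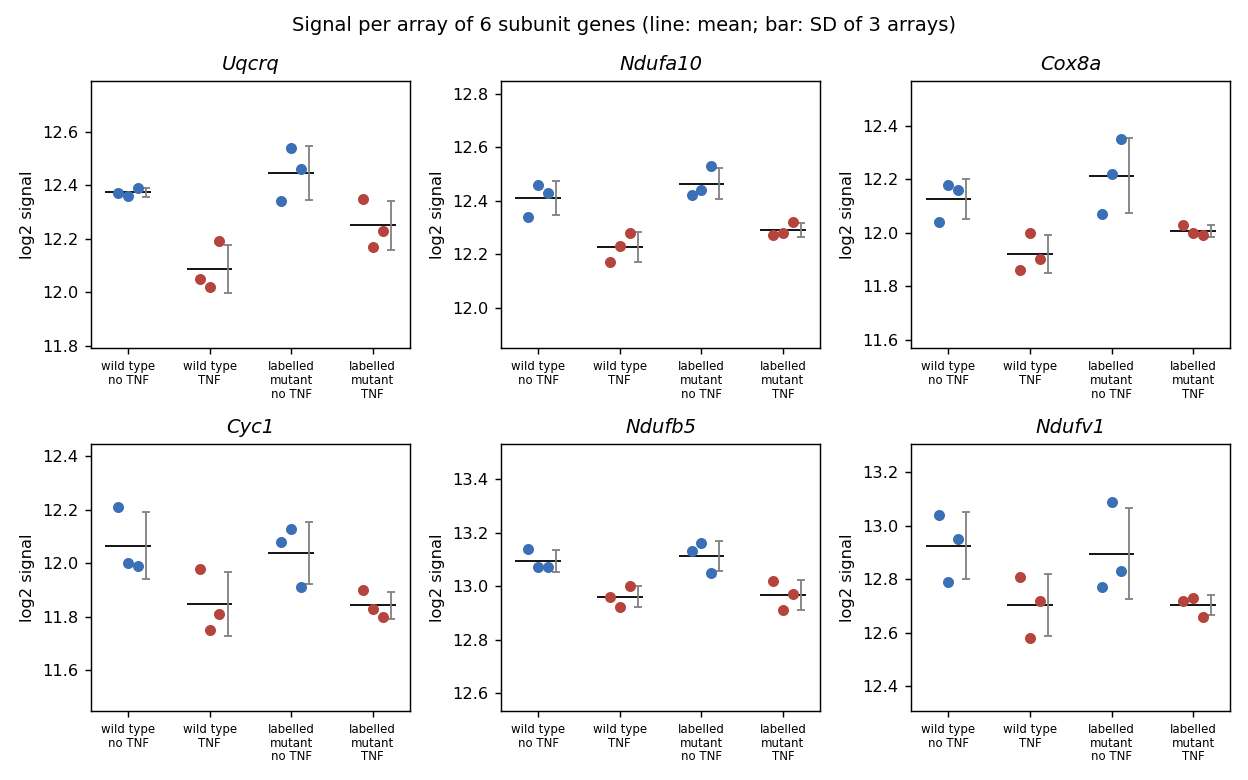
Signal on each array (log2, y axis) for Uqcrq, Ndufa10, Cox8a, Cyc1, Ndufb5 and Ndufv1 in the 4 groups (blue without TNF, red with TNF); lines are means and bars SDs of 3 arrays, and each panel spans 1 log2 unit. For Ndufa10, Cox8a and Ndufb5 every treated array is below every untreated one, and the genotypes lie at similar heights.

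The next genes by p were Cyc1, Ndufb5 and Ndufv1, none of which passed. Cyc1, the haem-bearing cytochrome c1 of complex III, had a change of -0.21 (limma adjusted p = 0.0695). Its untreated arrays read 12.21, 12 and 11.99 in wild type and 12.08, 12.13 and 11.91 in the group labelled mutant, and its treated arrays 11.98, 11.75, 11.81 and 11.90, 11.83, 11.80. Each genotype separated on its own, but treated and untreated arrays overlapped once the genotypes were pooled. Ndufb5, a subunit of the distal membrane arm of complex I, read 13.14, 13.07, 13.07 and 13.13, 13.16, 13.05 without TNF. With TNF it read 12.96, 12.92, 13 and 13.02, 12.91, 12.97. Here treated and untreated arrays did not overlap, and the change was -0.14 (limma adjusted p = 0.0828). A second Ndufb5 probe set gave -0.23 and passed in the fit over all probe sets (limma adjusted p = 0.0176), where the brightest did not (0.134). Ndufv1, which carries the flavin where NADH is oxidised, had a change of -0.21 (limma adjusted p = 0.0913), with overlapping groups in wild type.

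Among the other complex I genes, those of the electron-carrying arm leaned down by unequal amounts. Ndufs7, which holds the last iron-sulphur cluster before coenzyme Q, had a change of -0.19 (limma adjusted p = 0.132), and its second probe set gave -0.28 and passed over all probe sets (limma adjusted p = 0.0218), where the brightest did not (0.18). Ndufs1, the largest iron-sulphur subunit, had -0.12, Ndufs3 -0.06, Ndufs8 -0.05 and Ndufv2 -0.02, and none passed. The probe sets of Ndufs8 disagreed in sign, from -0.06 to 0.11. Of the supernumerary subunits, Ndufa6 had -0.13, Ndufa5 -0.12 and Ndufb9 -0.10, whereas Ndufa8, Ndufb10, Ndufb3 and Ndufb8 had changes of -0.03 to 0.00. The remaining genes, Ndufa1, Ndufa2, Ndufa3, Ndufa9, Ndufb6, Ndufb7 and Ndufs4, lay between -0.08 (Ndufa1) and -0.04 (Ndufb7). Over all 22 complex I genes the median was -0.064.

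Complex II, which is also an enzyme of the citric acid cycle, had no gene that passed. Sdhd, a membrane anchor, had the smallest p of the 4. It read 11.78, 11.61 and 11.56 in untreated wild type, 11.61, 11.50 and 11.56 in treated wild type, 11.71, 11.74 and 11.60 in the untreated group labelled mutant and 11.60, 11.47 and 11.52 in the treated one. The wild-type groups overlapped. Its change was -0.12 (SE 0.06, 95% interval -0.25 to 0.00, limma adjusted p = 0.197). The other anchor Sdhc had -0.09, the iron-sulphur subunit Sdhb -0.07 and the flavoprotein Sdha -0.05.

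Complex III had the lowest median of the 5 complexes, -0.139 over 5 genes, and was led by Uqcrq and Cyc1. The core proteins Uqcrc1 and Uqcrc2 had -0.14 and -0.11, and Uqcrfs1, the Rieske iron-sulphur protein, had -0.10. In complex IV the median was -0.096 over 6 genes. Cox6c had -0.12, Cox4i1 -0.10 and Cox5b -0.09, and Cox5a and Cox7a2 had -0.02 and 0.00. Cox4i1, a regulatory subunit, shows how small and steady such a difference was. Its group means were 13.01 and 12.90 in wild type without and with TNF and 13.06 and 12.96 in the group labelled mutant, with SDs of 0.02 to 0.06. It did not pass (limma adjusted p = 0.185).

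The 2 complex V genes measured, Atp5b and Atp5a1, encode the catalytic β and the α subunit of the ATP synthase head and had a median of -0.031. Atp5b read 13.27, 13.31 and 13.36 in untreated wild type and 13.23, 13.33 and 13.18 with TNF, and 13.29, 13.22 and 13.29 against 13.29, 13.26 and 13.26 in the groups labelled mutant. The groups overlapped in both genotypes. Its change was -0.03 (SE 0.05, 95% interval -0.14 to 0.07, limma adjusted p = 0.730). The medians of the complexes were not tested against each other.

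Within each genotype the same lean was seen and no gene passed. In wild type 0 of 39 passed, against 5.02% of all genes. The changes ran from -0.28 (Uqcrq, limma adjusted p = 0.0764) to 0.02 (Cox7a2), and 34 were below 0, against 10420 of all 18193 genes. An unadjusted limma p under 0.05 was reached by 4, all lower, against 1441 higher and 1795 lower of all genes. For 13 genes (33.3%) all treated arrays were below all untreated ones, against 11.7% of all genes. Among arrays labelled mutant 0 of 39 passed as well, against 4.31% of all genes. There the changes ran from -0.20 (Cox8a) to 0.00 (Atp5b), and 38 were below 0, against 10534 of all 18193 genes. Again 4 had an unadjusted limma p under 0.05, all lower, against 1348 higher and 1758 lower of all genes. Treated arrays lay below untreated ones without overlap for 16 genes (41%), against 15.8% of all genes. Without overlap over all 12 arrays there were 6 genes (15.4%), Ndufa5, Ndufa10, Ndufb5, Ndufs3, Cox5b and Cox8a, against 4.02% of all genes.

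The TNF comparisons of the 2 genotypes share no arrays, so their values can be set side by side. A total of 33 of 39 subunit genes (84.6%) were lower with TNF in both, against 43.7% of all genes. Pearson's r between the changes in the 2 genotypes was 0.74 across the 39 genes, which are not independent replicates and share their arrays; it was 0.83 across all genes.

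Genes of similar signal tend to have similar precision, and 3493 genes had a mean between the lowest and the highest of the 39. They share only this range, because the median subunit gene was above 96.4% of all genes. For TNF averaged over genotype their median SE was 0.063, against 0.054 for the 39. Of these 3493 genes, 218 rose and 215 fell (12.4%) when TNF was averaged over genotype. Their median change was 0.004, and 49% of them were below 0 on that average. Lower in both genotypes were 40.2%. The subunit genes occupied a narrow band within this range, with the lowest at -0.24, whereas 89 of the 3493 genes changed by more than 1.5-fold and 21 by more than 2-fold. For the 39 genes the 95% intervals had a median half-width of 0.12. No interval reached beyond 0.37 from 0 (Ndufv1), which is 1.29-fold, and 32 of the 39 lay wholly within 0.3. For the brightest probe sets and this average, a change larger than 1.29-fold was therefore outside these intervals. They do not show that the genes were the same with and without TNF. The limit does not extend to other probe sets, as the second of Ndufs7 gave -0.28 (SE 0.06). In wild type alone the farthest bound was 0.47 (Ndufb6), or 1.39-fold.

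**Figure D3:**
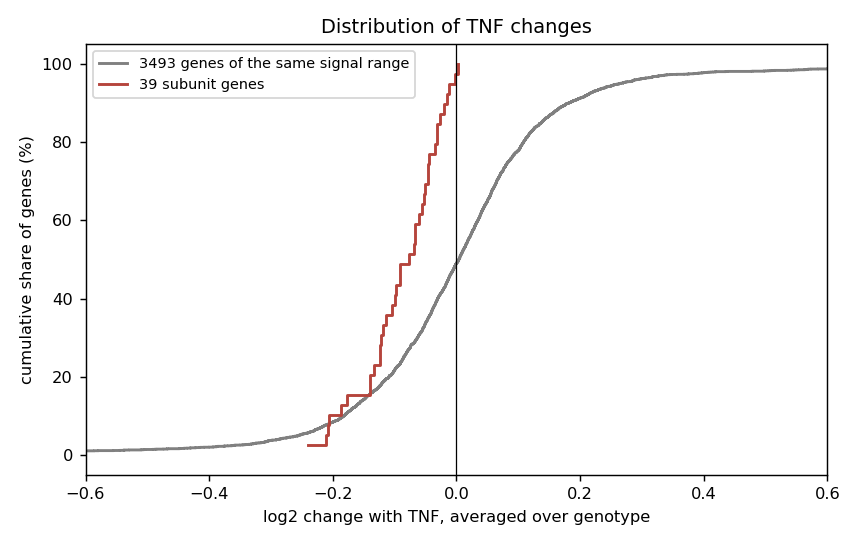
Cumulative share of genes (percent, y axis) by change with TNF averaged over genotype (log2, x axis) for the 39 subunit genes and for 3493 genes with mean signals in the same range. The subunit curve reaches 97.4% below 0, against 49% for the other genes, and lies within a narrower band.

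Other features of the cultures moved with TNF. Of 16 granulocyte markers measured 14 fell, with a median change of -2.27 (log2), and their summed signal on a linear scale ran from 53857 to 67108 without and 18731 to 29152 with TNF in wild type, and from 64690 to 77302 and 16981 to 39679 on the arrays labelled mutant; Mmp9, Cxcr2 and Fcnb stayed below the median gene signal throughout. Of 14 monocyte and dendritic markers 2 rose and 4 fell, with summed signals of 22348 to 26993 and 12805 to 15789 in wild type and 24048 to 31836 and 12333 to 25052 in the groups labelled mutant. Of 11 mast cell, basophil and eosinophil markers 0 rose and 3 fell, with sums of 4641 to 6407 and 1610 to 2507 in wild type and 3328 to 5101 and 1609 to 3445 in the groups labelled mutant. Of the erythroid markers 1 of 12 rose and 3 fell, of the megakaryocyte markers 0 of 9 rose and 4 fell, of the lymphoid markers 2 of 13 rose and 1 fell, and of the stromal and endothelial markers 0 of 13 rose and 1 fell. Many of these were dim: 10 erythroid, 4 megakaryocyte, 8 lymphoid and 9 stromal and endothelial markers stayed below the median gene signal throughout. So did 5 mast cell, basophil and eosinophil markers and 3 monocyte and dendritic ones. Of 13 stem and KSL markers 1 rose, Procr, and 0 fell. Their summed signal ran from 28156 to 31158 without and 29542 to 30915 with TNF in wild type, and from 26093 to 27815 and 27874 to 30252 in the groups labelled mutant, where every treated array was higher than every untreated one. Of 29 S phase and mitosis genes 0 rose and 1 fell, Cdc6, which passed in 9 of 20 alternatives. The part of these markers in the lean of the subunit genes was not tested. Xist, expressed in female cells, was at 12.20 to 13.08 on all 6 treated arrays, but at 5.47, 5.06 and 12.53 in untreated wild type and 5.12, 12.73 and 12.04 in the untreated group labelled mutant. Donor sex, as read from Xist, was thus not balanced over TNF, and effects of sex and TNF cannot be fully told apart here. With Xist and Eif2s3y, a Y-linked gene, as covariates, 1 subunit gene passed (2.56%, against 6.98% of all genes). In that fit 34 of 39 were below 0.

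Genotype was compared on the same genes, and no subunit gene passed. Without TNF 0 of 39 passed, against 0.0055% of all genes (1 gene), and 0 had an unadjusted limma p under 0.05. Differences, mutant minus wild type, ran from -0.11 (Ndufb6) to 0.13 (Ndufb10), the same 2 genes whose replicates were most spread. With TNF 0 passed, also against 0.0055% of all genes, and 0 had an unadjusted p under 0.05. Those differences ran from -0.08 (Ndufs1) to 0.16 (Uqcrq, limma adjusted p = 0.916). Averaged over treatment 0 passed, against 0.022% of all genes (4 genes), and 0 had an unadjusted p under 0.05. Uqcrq again had the largest difference, 0.12 (95% interval -0.01 to 0.24, limma adjusted p = 0.708), and Sdha the lowest, -0.07. The farthest bound of any interval on this average was 0.33 (Ndufb10), or 1.26-fold, with a median half-width of 0.12.

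Whether the TNF response depended on genotype was tested as an interaction. No subunit gene passed (0 of 39), as none of all genes did (0%), and 0 subunit genes had an unadjusted limma p under 0.05. The differences between the responses ran from -0.11 (Ndufa9) to 0.12 (Ndufb6). Intervals were wider here, with a median half-width of 0.24 and a farthest bound of 0.61 (Ndufb6), or 1.52-fold. For Uqcrq the interaction was 0.08 (95% interval -0.17 to 0.33), for Ndufa10 it was 0.01 (-0.20 to 0.22) and for Cox8a 0.00 (-0.26 to 0.27). Differences in response within these intervals remain possible, and 3 arrays per group limited what could be detected.

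Genes around the chain were taken from lists chosen by function. Of 35 further nuclear subunits 0 passed in either direction and 5 had an unadjusted limma p under 0.05, all lower, with a median of -0.067. By complex the medians were -0.091 over 13 genes (I), -0.049 over 4 (III), -0.026 over 4 (IV) and -0.053 over 14 (V). Complex III was thus not the lowest among them. Of 13 subunits encoded by mitochondrial DNA only the complex I subunit mt-Nd5 was measured, with a change of 0.09 that did not pass. Of 38 assembly factors, which build the complexes but are not part of them, 1 rose and 6 fell, and the median was -0.075; with array medians centred 0 rose and 7 fell, and with cyclic loess 2 rose and 3 fell. The number that fell was 1 without replicate 2 of the untreated, or replicate 2 or 3 of the treated, arrays labelled mutant. It was 2 without replicate 3 of treated wild type or of the untreated arrays labelled mutant. Without replicate 2 or 3 of untreated wild type, replicate 1 of the untreated or replicate 1 of the treated arrays labelled mutant, it was 3. Nubpl, which delivers iron-sulphur clusters to complex I, rose by 0.21. Ecsit, a complex I assembly factor, fell by 0.37 (limma adjusted p = 0.0495), Cox19, a copper protein needed for complex IV, by 0.34 (0.00291), Bcs1l, which inserts the Rieske protein into complex III, by 0.31 and Atpaf2, which assembles the ATP synthase head, by 0.27. Cox19 passed in 20 of 20 alternatives, Nubpl in 18, Bcs1l in 12, Atpaf2 in 10 and Ecsit in 7. Cox19 read 10.87, 10.83 and 10.82 without and 10.53, 10.64 and 10.58 with TNF in wild type. The groups labelled mutant read 10.92, 11.09 and 10.97 without and 10.68, 10.44 and 10.59 with TNF, with no overlap over the 12 arrays.

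Among 13 genes for cytochrome c and coenzyme Q synthesis, 1 rose and 2 fell. Coq8a, a kinase-like protein of the coenzyme Q pathway, rose by 0.61 (SE 0.12, limma adjusted p = 0.00694), and Coq9 and Coq4 fell by 0.27 and 0.24. With the Xist and Eif2s3y covariates none of the 3 passed (Coq8a had a limma adjusted p of 0.0533), and Coq4 passed in 9 of 20 alternatives. Cycs, cytochrome c itself, had a change of -0.08 and did not pass. Of 19 citric acid cycle and pyruvate entry genes, Pcx, which makes oxaloacetate from pyruvate, rose at a low signal by 0.77 (limma adjusted p = 0.00940) and Idh3b, a subunit of isocitrate dehydrogenase, fell by 0.22, a call kept in only 7 of 20 alternatives (limma adjusted p from 0.0158 to 0.307). The median of these genes was -0.074. Of 22 glycolysis genes 1 rose and 3 fell, with a median of -0.067. Eno2 rose by 0.94, while Hk3, a hexokinase of myeloid cells, fell by 1.85, Pfkp by 0.75 and Pfkfb3 by 0.27. Hk3 and Pfkp passed in 20 of 20 alternatives and Pfkfb3 in 14, and the Eno2 call was not kept in all alternatives. With a filter on dim genes, 19 glycolysis genes remained, of which 0 rose and 3 fell. With the covariates 1 glycolysis gene rose and 2 fell.

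The 72 mitochondrial ribosomal proteins translate the subunits encoded by mitochondrial DNA. Of these 1 rose and 12 fell, 62 were below 0, and the median was -0.104. Mrpl4 fell by 0.50 (SE 0.07, limma adjusted p = 0.000719), Mrpl34 by 0.47, Mrps22 by 0.39 and Mrps26 by 0.38, and Mrps30 rose by 0.24. Mrpl4 passed in each genotype on its own, with -0.49 in wild type (limma adjusted p = 0.0128) and -0.50 in the group labelled mutant (0.0127). The first of these calls held in 18 of 20 alternatives, being lost with the covariates and without replicate 3 of treated wild type. The second held in 16, being lost with the covariates and without replicate 2 or 3 of the untreated or replicate 2 of the treated arrays labelled mutant. With the covariates 0 of the ribosomal protein genes rose and 6 fell. With array medians centred 0 of the ribosomal protein genes rose and 13 fell, and with cyclic loess 1 rose and 10 fell.

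Of 17 regulators of mitochondrial biogenesis 1 rose and 2 fell. Esrra, the nuclear receptor ERRα that drives respiratory genes, read 8.01, 8.03 and 7.96 in untreated wild type and 7.47, 7.40 and 7.45 with TNF. On the arrays labelled mutant it read 8, 8.03 and 7.92 without and 7.56, 7.47 and 7.68 with TNF. All treated arrays were below all untreated ones, and Esrra fell by 0.49 (SE 0.05, 1.40-fold; limma adjusted p = 0.00016), a call kept in 20 of 20 alternatives. It also fell in each genotype on its own, by 0.56 in wild type (limma adjusted p = 0.00142) and by 0.41 on the arrays labelled mutant (0.00972). The wild-type call was lost with the mean of probe sets, and the other with the mean of probe sets, trended and robust moderation or the covariates, where limma adjusted p reached 0.398. Ppargc1b, a coactivator of ERRα, fell by 0.49 on the average (SE 0.11, limma adjusted p = 0.0172), with -0.47 and -0.52 in the 2 genotypes, neither of which passed; the call on the average was lost with the covariates (limma adjusted p = 0.126). Gabpb1, the partner of the DNA-binding GABPA, rose by 0.22 (limma adjusted p = 0.00919); this was lost with centring, with the mean of probe sets and with the covariates. No call was made for Nrf1 (0.10), Gabpa (0.13), Yy1 (0.06), Tfam (-0.03), Ppargc1a (0.01), Pprc1 (-0.07) or Myc (-0.07).

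**Figure D4:**
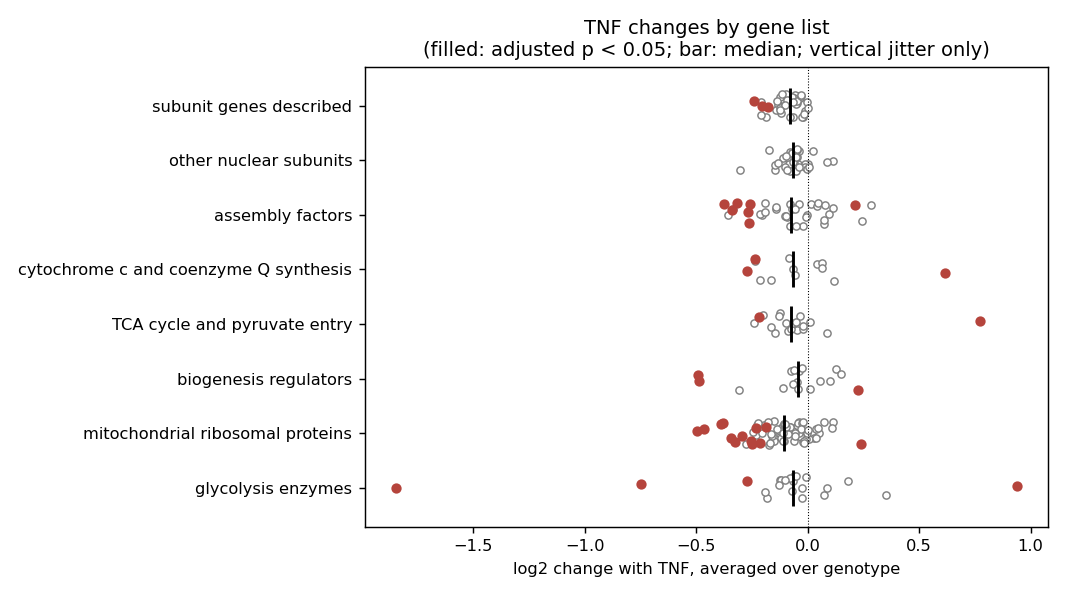
Change with TNF averaged over genotype (log2, x axis) for each gene of the subunit genes and of the lists around them; filled points passed at an adjusted p under 0.05, bars are medians, and vertical scatter only separates points. The subunit genes lie between -0.24 and 0.00, and the genes of other lists reach from -1.85 (Hk3) to 0.94 (Eno2).

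The change with TNF was also set against the promoter letters. The 16 subunit genes with at least 1 of the 3 motifs in a promoter had a median change of -0.07 (from -0.21 to 0.00), the 13 without had -0.05, and the 10 without an entry had -0.11. Cox8a, with the GABPA letters printed above, and Ndufa10, with none of the motifs, changed by similar amounts. These medians were not tested.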

How the data were processed

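The authors deposited log2 expression per probe set for each array. The submitters' processing notes name RMA (robust multi-array average) without a version. That the base is 2 was read from the range of the values, 2.14 to 14.94. RMA equalises arrays, so a shift of all genes cannot be seen. The amplification started from 5 to 15 ng of RNA, per the labels. Of 45101 probe sets 64 controls were left out, 34945 had 1 gene symbol in the platform annotation, 932 several and 9160 none here. A gene was its brightest probe set with 1 symbol; 24 of the 39 subunit genes had several.

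All 12 arrays were fitted with limma 3.58.1 (R 4.3.3), 1 mean per group, 2-sided, with Benjamini-Hochberg adjustment over 18193 genes; genes with an adjusted p under 0.05 passed, and intervals are 95%. The scripts were tested on simulated data. Alternatives were other scalings, filters, probe set rules, moderation, array weights, covariates, a fit over all probe sets (chosen after seeing the data) and leaving out each array. The members and gene lists were chosen with earlier results of these data known. Genes given in full passed a comparison, had the smallest p of their complex, or were the next 3 by p; from other lists called genes are named, at most 4 in each direction.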

Additional observations from a re-analysis of the deposited data

How the results depend on the processing

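No subunit gene rose under any alternative, and none passed for genotype, the interaction or TNF on the arrays labelled mutant. For TNF in wild type Uqcrq passed with a filter on dim genes and with trended, robust moderation. Ndufa10 passed there only with the mean of probe sets, which includes a dim probe set (mean 7.23, change -0.55). For TNF averaged over genotype, 5 passed with the filter (at least 3 arrays above 7.44, 9444 genes), 9 with trended, robust moderation and 1 with Xist and Eif2s3y as covariates; leaving out single arrays gave 0 to 3. A fit over all 45037 probe sets, chosen after seeing the data, left 1 (7.41% of probe sets passed). Over all these fits 34 to 39 of the 39 were below 0. The median change on that average was -0.11 with array medians centred and -0.09 to -0.07 without single arrays. Centring also moved the genotype medians, to 0.09 without TNF, 0.07 with TNF and 0.08 on average, while the medians of all genes moved to 0.06, 0.051 and 0.055. Of all genes called for TNF on average, 1057 of 2207 rose; 852 of 2271 did with centring and 1215 of 2194 with loess. Whether array numbers pair the samples was not settled. Deviations of same-numbered arrays correlated at -0.16 to 0.28 (median 0.045, 7 of 18 pairs over 0.1). Those of other-numbered arrays correlated at -0.33 to 0.18 (median -0.025, 6 of 36 pairs over 0.1). With the replicate block 4 subunit genes passed for TNF on average, and no other count of subunit genes changed. The causes of these shifts were not tested. Array number limits what could be detected.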

Other observations

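Tissue-restricted isoforms, paralogues and regulators of the respiratory chain were outside the subunit genes described above. A list of 13 of them was drawn up after the results for the subunit genes had been seen, and 12 were measured. For TNF averaged over genotype AA467197 rose, Cox4i2, Cox8b and Ucp3 fell, and the others did not pass. AA467197, the mouse counterpart of human NMES1 and a paralogue of the subunit Ndufa4, read 10.96, 10.87 and 10.87 in untreated wild type and 10.84, 12.24 and 12.11 with TNF. In the groups labelled mutant it read 10.78, 10.94 and 10.73 without and 11.57, 12.03 and 11.92 with TNF. Replicate 1 of treated wild type stood with the untreated arrays, and the other 5 treated arrays were above all of them. AA467197 rose by 0.93 (SE 0.21, limma adjusted p = 0.0145) and passed in 19 of 20 alternatives; with Xist and Eif2s3y as covariates the adjusted p was 0.072. Ndufa4 itself read 12.74 to 12.96 over all arrays.

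Cox4i2, the isoform of cytochrome c oxidase subunit IV known for its response to low oxygen, read 7.9, 7.73 and 8.02 in untreated wild type and 6.65, 5.61 and 6.40 with TNF. On the arrays labelled mutant it read 7.35, 7.75 and 7.77 without and 6.86, 5.44 and 6.10 with TNF, so that treated and untreated arrays did not overlap. It fell by 1.58 (SE 0.24, limma adjusted p = 0.00148) and passed in 20 of 20 alternatives, while the widely expressed isoform Cox4i1 had a change of -0.10 that did not pass. The treated values lie below the median gene signal, where RMA compresses changes. Cox8b, the muscle isoform, fell by 0.40 (limma adjusted p = 0.00494) and Ucp3 by 0.20 (0.0403), both at low signal. Cox8b passed in 18 of 19 alternatives but Ucp3 in only 3 of 19 (limma adjusted p up to 0.308), and the other Ucp3 probe set gave 0.02. Cox6a2 had -0.43 and did not pass (limma adjusted p = 0.0976); replicate 1 of treated wild type read 10.59 against 11.57 and 11.57. Its second probe set gave -0.51 and passed in the fit over all probe sets (limma adjusted p = 0.0295). Higd1a (-0.14), Higd2a (-0.15) and the ATP synthase inhibitor Atpif1 (0.00) did not pass. The probe sets of Higd1a disagreed, since a second and dimmer one gave 0.35 and passed in the fit over all probe sets (limma adjusted p = 0.0295).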
